A study of Rattus norvegicus with 23 samples.

Results

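The response of rat dorsal root ganglia 18 h after transection of the sciatic nerve was measured on 3 arrays, taken by their titles from the 23 arrays of the series. On each array, RNA from lesioned L4 and L5 ganglia was labelled with Cy5 and RNA from intact ganglia with Cy3, and both were hybridised to spotted oligonucleotides with dendrimer labelling. The animals were Long-Evans rats aged postnatal day 20 to 24, and the other 20 arrays held the same comparison at 4, 8, 12, 24, 48, 148 and 296 h. The surgery is the conditioning lesion, in which injury of the peripheral branch comes before growth of the axon is assayed. Every array thus had intact ganglia as its comparison, and sham surgery was not compared here. The labels do not say whether the replicate arrays came from separate animals or which animals gave the intact RNA. The p-values thus describe only the spread between arrays of the same time, pooled over all 23 arrays, and that spread may be technical. The labels also speak of cultured cells and of cAMP cultures beside the surgery, and groups were taken from the labels of time and lesion. The deposited values were ratios of the 2 channels without intensities, so the tissue could not be checked by the level of its defining markers. The direction, lesioned over intact, was taken from the dyes.

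Dorsal root ganglia hold the cell bodies of sensory neurons, wrapped by satellite glia and accompanied by Schwann cells, fibroblasts, vessels and macrophages. After a cut of the peripheral axon, sensory neurons switch on the transcription factor Atf3 and, with it, a programme of stress and growth genes often called regeneration-associated genes. Gadd45a takes part in growth arrest and DNA repair, Vgf is the precursor of secreted peptides of the regulated secretory pathway, and Hspb1 is a small heat shock protein that binds the cytoskeleton. In RNA from whole ganglia, fewer cells of a type and less RNA per cell cannot be told apart.

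A pair of these injury genes had a motif of the ATF and CREB family in the promoter, in full in Vgf and only its core in Gadd45a. Both promoters are printed because the family's member Atf3 was among the largest changes. Whether Atf3 or another member binds or regulates either gene was not tested. The sequences are from RefSeq, build GRCr8, 250 bases before to 50 bases after the annotated start, and 3 of the 4 genes had an entry. Gadd45a lies at chr4:97486750-97487049 and Vgf at chr12:25276971-25277270, both on the minus strand and printed in the direction of transcription. Capitals mark the full cAMP response element TGACGTCA in Vgf, 90 bases before the start, and the reverse complement of its core TGACG in Gadd45a, 128 bases before the start.
Gadd45a: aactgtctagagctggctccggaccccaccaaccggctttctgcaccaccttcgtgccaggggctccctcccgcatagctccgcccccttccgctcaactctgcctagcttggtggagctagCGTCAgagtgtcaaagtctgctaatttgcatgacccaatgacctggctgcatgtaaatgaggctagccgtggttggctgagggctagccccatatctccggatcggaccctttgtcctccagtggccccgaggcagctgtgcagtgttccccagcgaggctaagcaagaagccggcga
Vgf: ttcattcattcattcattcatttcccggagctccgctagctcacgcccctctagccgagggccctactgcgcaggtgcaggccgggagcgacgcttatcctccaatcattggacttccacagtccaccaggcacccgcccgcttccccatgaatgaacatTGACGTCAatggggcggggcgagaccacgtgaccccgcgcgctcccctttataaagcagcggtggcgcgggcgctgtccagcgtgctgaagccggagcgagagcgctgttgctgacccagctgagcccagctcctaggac
Of the 33469 promoters of this table, 1.83% held TGACGTCA on either strand and 21.2% held TGACG, which is contained in TGACGTCA. The AP-1 site TGACTCA was in 4.63% and the C/EBP-ATF site TGATGCAAT in 0.188%, and neither was in the windows of Gadd45a, Vgf or Hspb1. The Hspb1 window (chr12:26432252-26432551, minus strand) held none of the motifs searched.

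At 18 h, 70 of 5015 probes measured on at least 2 of the 3 arrays differed from 0 (1.4%), by limma's moderated test with Benjamini-Hochberg adjustment at a threshold of 0.05. Of these, 26 were higher in lesioned ganglia (0.518% of the probes tested) and 44 lower (0.877%). They stood for 22 named genes higher and 40 lower, with 7 probes that had no gene symbol. On 69 of the 70 probes all 3 arrays had the same sign, and on the other, Clcn3, 2 of 3 did. The calls rest on the mean of these same arrays, which favours equal signs, so this is not separate support. The log2 ratio was between 0.53 and 4.28 among probes that rose and between -4.51 and -0.51 among those that fell, with medians of 1.07 and -1.19, and the median of all probes was 0.01. Replicate 3 spread wider over the probes (SD 0.750 on the log2 scale) than replicates 1 and 2 (0.506 and 0.535), and the 3 arrays measured 4992 to 5009 probes each. Without replicate 1, 2 or 3, 58, 33 or 22 probes passed, and 15 of the 70 passed in every one of these 3 fits. With all arrays weighted equally, 18 passed, and these included the same 15. The 15 were Vegfd, Rps6kb1, Atf3, Gadd45a, Vgf (1D09), Crtac1, Hspb1 (52D12) and an unnamed probe among those that rose, and Vegfa, Ccnd1, Fgfr1-ps1, Dlgap2, Hivep2 and a pair of unnamed probes among those that fell. Each of the other 55 lost its call in at least 1 of these 4 fits.

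**Figure D1:**
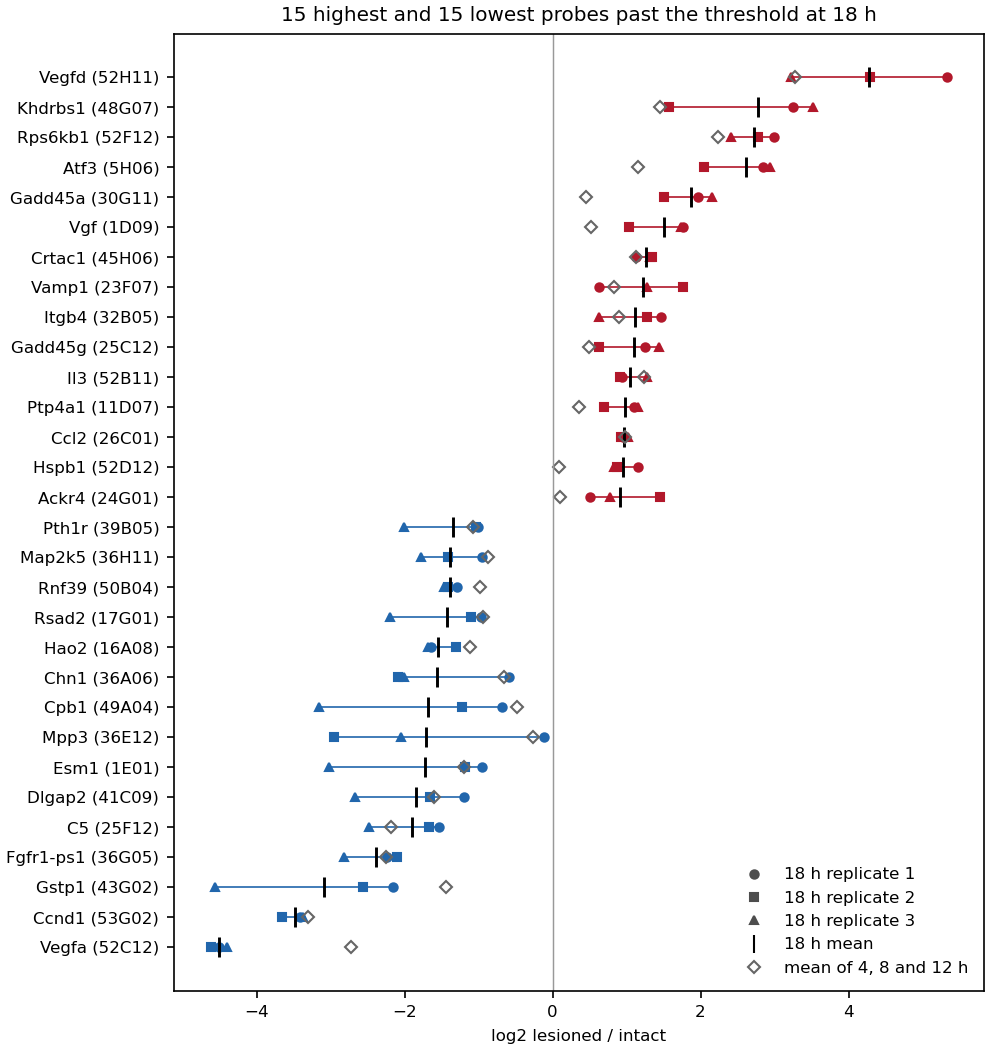
Log2 ratio of lesioned to intact ganglia (x axis) on each of the 3 arrays at 18 h for the 15 highest and 15 lowest named probes past the threshold (y axis, gene and probe). Filled symbols are the replicates, the black bar is their mean and the open diamond is the mean of 4, 8 and 12 h. For Atf3, Gadd45a and Vgf the diamond lies below every 18 h array, while for Ccl2, Crtac1 and Ccnd1 it lies close to the 18 h mean.

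The 4 injury markers rose at 18 h on each of the 3 arrays. Together they hold 6 probes of which 5 passed, against 0.518% of all probes tested that passed as higher. The markers were chosen with earlier results of these data known, so this count is not independent support. Atf3 was at log2 2.84, 2.05 and 2.93 in replicates 1 to 3, a mean of 2.61 ± 0.49 (SD, n = 3) or 6.10-fold (limma adjusted p = 2.2e-05). Replicate 2 was the lowest and still above all 9 arrays of 4, 8 and 12 h, whose time means were 0.52, 1.38 and 1.55. Gadd45a was at 1.97, 1.51 and 2.15, a mean of 1.88 ± 0.33 (SD, n = 3) or 3.67-fold (limma adjusted p = 0.00018). Its means at 4, 8 and 12 h were -0.09, 0.26 and 1.17, and replicate 2 of 12 h, at 1.83, lay inside the range of 18 h. Gadd45g, a relative of Gadd45a with a role in growth arrest, was at 1.24, 0.62 and 1.44 (limma adjusted p = 0.026), and some arrays of 4 and 8 h lay above its lowest 18 h array. The Gadd45g call was lost with equal weights (limma adjusted p = 0.071) and without replicate 1 (0.12) or 3 (0.28).

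Vgf and Hspb1 each had a pair of probes. Vgf probe 1D09 was at log2 1.76, 1.03 and 1.74, a mean of 1.51 ± 0.42 (SD, n = 3) or 2.85-fold (limma adjusted p = 0.00017). The other Vgf probe, 52D09, was at 0.84, 0.97 and 0.89 and did not pass (limma adjusted p = 0.16), although its 3 arrays lay close together. Its standard error of 0.28 uses a variance shared by all times, and its 296 h arrays were at 0.18 and -4.28. Both Vgf probes thus had a positive ratio on every 18 h array. Hspb1 passed on both of its probes, at 1.15, 0.87 and 0.83 on 52D12 (mean 0.95, 1.93-fold) and at 0.47, 0.71 and 0.60 on 9H02 (mean 0.59, 1.51-fold). On each Hspb1 probe, all 3 arrays at 18 h lay above all 9 arrays of 4, 8 and 12 h, where the means were 0.09 and -0.18. The call of 9H02 was lost with equal weights (limma adjusted p = 0.089) and without replicate 2 or 3, while that of 52D12 held.

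Stmn4, a stathmin that binds tubulin and is expressed in neurons, was at log2 0.53, 1.0 and 1.12, a mean of 0.88 ± 0.31 (SD, n = 3). It had no positive mean before 18 h, with -0.26, -0.02 and -0.34 at 4, 8 and 12 h, and its 18 h arrays did not overlap with any of these 9. At 24, 48 and 148 h its mean was 0.93, 2.14 and 2.35. Its 18 h call (limma adjusted p = 0.01) was lost with equal weights (0.12) and without replicate 2 or 3. Over all probes measured on at least 2 arrays at each of 4, 8, 12 and 18 h, the 18 h arrays lay above every earlier array on 18 of 4951 (0.364%) and below on 22 (0.444%). Among the 70 called probes, 5 lay above and 0 below. The 5 were Atf3, both Hspb1 probes, Stmn4 and Ackr4, an atypical chemokine receptor (chosen after their values were seen). The 70 were called on their 18 h ratio, which favours such a separation. Their count therefore cannot be set against the share over all probes.

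**Figure D2:**
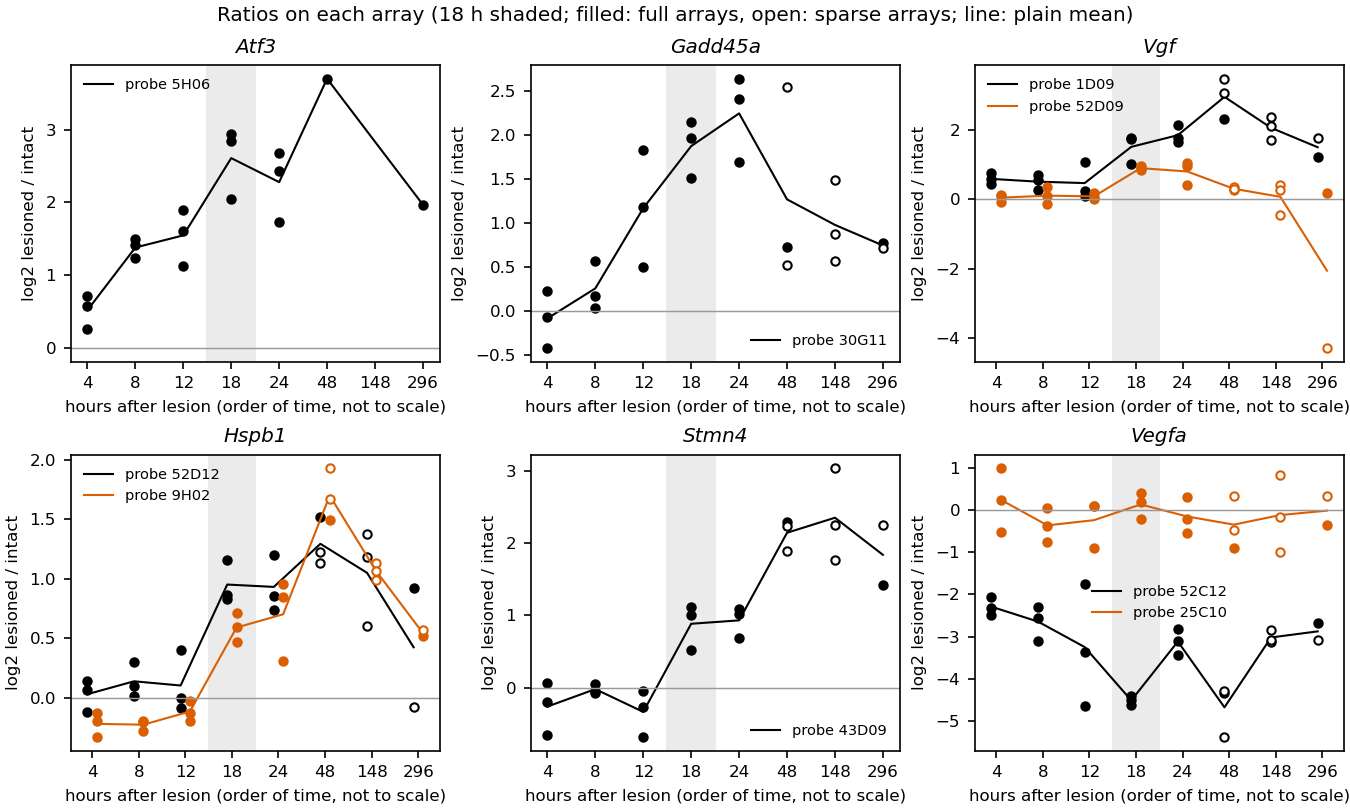
Log2 ratio of lesioned to intact ganglia (y axis) on every array against hours after lesion (x axis, in order but not to scale) for 6 genes, with 18 h shaded. Filled points are arrays with at most 200 missing probes, open points are sparser arrays and lines join plain means, so that Atf3 stands at 0.52 at 4 h and 2.61 at 18 h and Stmn4 at -0.26 and 0.88, while the Vegfa probes differ at every time.

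The next comparison asked which of these ratios were particular to 18 h. Each probe was set against the mean of the 7 other times, in which a constant ratio, dye effects included, cancels. Of 2327 probes measured on at least 2 arrays at every time, 2 passed (0.0859%). Npy, the neuropeptide Y precursor, was lower at 18 h than at the other times by log2 -1.84 ± 0.23 (SE; limma adjusted p = 0.0012). Its 18 h arrays were at 0.07, 0.12 and -0.36, near 0, and the high ratios were at later times, with means of 2.81, 5.70 and 4.66 at 48, 148 and 296 h. Against 4 to 24 h only, the Npy difference was -0.04. Reg3b probe 52G12, of the regenerating islet-derived family of secreted proteins, was higher at 18 h by 0.88 ± 0.16 (SE, limma adjusted p = 0.033). Its arrays were at 0.23, 0.39 and 0.72 at 18 h, where it did not pass against 0 (limma adjusted p = 0.20). Over the other 7 times its mean was -0.43. The other Reg3b probe, 32G07, averaged 0.83 at 18 h and differed from the other times by -0.25, and the call of 52G12 was lost under 17 of 33 alternatives. No injury marker passed: Gadd45a stood 0.98 above the other times (limma adjusted p = 0.27), and Atf3 had too few arrays at 48 h and later to be tested.

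Against the mean of 4, 8 and 12 h, where all arrays were of the denser kind, 0 of 4951 probes passed in limma (0%), and 213 had an unadjusted p under 0.05 (4.3%). The smallest adjusted p was 0.0514 and was shared by 6 probes, of Atf3, Gadd45a, Stmn4, Reg3b (52G12) and Hspb1 (both probes), all with a higher ratio at 18 h. The differences were 1.46 ± 0.25 (SE) for Atf3, 1.43 ± 0.28 for Gadd45a and 1.09 ± 0.20 for Stmn4, and 0.86 ± 0.17 and 0.78 ± 0.14 for Hspb1. Vgf probe 1D09 stood 0.99 ± 0.22 above the earlier hours (limma adjusted p = 0.17). With 1 weight for each array 4 probes passed, and on probes measured on every array 6 did. Without replicate 3 of 12 h 6 passed, and without replicate 1 of 12 h 2 did. Between 18 and 24 h, 0 of 4978 probes passed in limma (0%; smallest adjusted p = 0.245), with 284 at an unadjusted p under 0.05. Of the 70 probes called at 18 h, 66 had the same sign at 24 h, and 54 kept at least 0.5 of their 18 h ratio.

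Most called probes had a like ratio when the other times were averaged. Of the 70, 48 had a mean over the other 7 times of the same sign and at least 0.5 of the 18 h value, and a difference from it that did not pass (17 higher, 31 lower). Another 7 fell short of that share (2 higher, 5 lower), and 15 were not measured at every time. Gadd45a and Vamp1 were the 2 higher probes that fell short, and Mpp3, Hao2, Foxd4, Slc28a2 and an unnamed probe were the lower ones. Read against 4 to 12 h, a split chosen after the data were seen, 46 of the 70 had reached 0.5 of the 18 h value already, 23 had not and 1 was not measured. Among probes that rose, 14 had not and 11 had, and among probes that fell, 9 had not and 35 had. The probes that fell therefore had a median of -0.87 over 4 to 12 h against -1.19 at 18 h, and those that rose 0.49 against 1.07. A like mean over the other 7 times can thus come from later hours. Of the 17 higher probes with such a mean, 8 had not reached 0.5 by 4 to 12 h, among them Stmn4, Vgf (1D09) and both Hspb1 probes. Of the 31 lower ones, 3 had not.

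**Figure D3:**
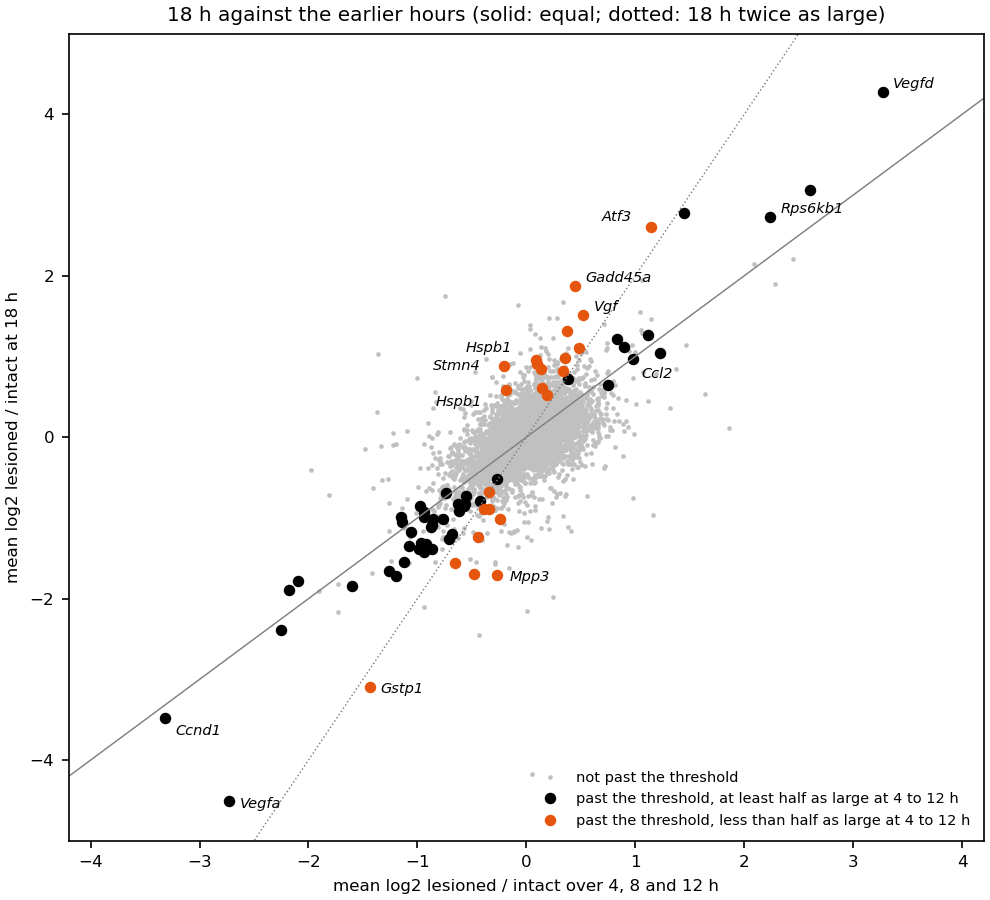
Mean log2 ratio at 18 h (y axis) against the mean over 4, 8 and 12 h (x axis) for each probe tested. Black and orange points passed the threshold at 18 h. Orange points had less than 0.5 of the 18 h value at the earlier hours, and Atf3, Gadd45a, Vgf, Hspb1 and Stmn4 are among them. Ccnd1 lies near the line of equal ratios (-3.31 at the earlier hours and -3.48 at 18 h). Vegfd (3.27 and 4.28) and Rps6kb1 (2.24 and 2.73) are black and lie farther above that line.

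Among the other probes that rose, several had a ratio from the first hours on. Ccl2, the chemokine that draws monocytes, was at log2 0.95, 0.93 and 1.02 on probe 26C01 (limma adjusted p = 0.018), and its mean over 4 to 12 h was 0.98. The other Ccl2 probe, 52C04, averaged 0.51 and did not pass (limma adjusted p = 0.17). Crtac1, a secreted matrix protein, was at 1.13, 1.34 and 1.32, with 1.12 over 4 to 12 h. The call of Crtac1 held with equal weights and without each 18 h array, whereas those of Ccl2, Ptp4a1 and Khdrbs1 were lost in all 4 of these fits. Vamp1, a synaptic vesicle protein of the SNARE complex, was at 0.63, 1.76 and 1.28, and Itgb4, an integrin subunit, at 1.46, 1.27 and 0.63. Vamp1 passed without replicate 1 but in none of the other 3 fits, and Itgb4 passed with equal weights and without replicate 3 but not without replicate 1 or 2. Ptp4a1, a protein tyrosine phosphatase, was at 1.11, 0.69 and 1.15 against 0.36 over 4 to 12 h. Khdrbs1, an RNA-binding protein, was at 3.25, 1.57 and 3.52, where replicate 2 stood far below the others. Il3, a cytokine of blood cell formation, averaged 1.04 on probe 52B11 but 0.05 on its other probe, 26B07 (limma adjusted p = 0.98), and the call of 52B11 was lost in all 4 fits. Ackr4 averaged 0.91, and its call was lost with equal weights (limma adjusted p = 0.10), without replicate 2 or 3 and with the replicate block (0.051). Further probes past the threshold carried Fabp5, Tmprss11d, Rraga, Tnfaip6, Atp1b2 and Gabra5, all lost with equal weights.

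Among the probes that fell, Gstp1, a glutathione transferase, was at log2 -2.16, -2.56 and -4.56, a mean of -3.10 ± 1.29 (SD, n = 3; limma adjusted p = 0.0295). Replicate 3 was far below the others, the mean over 4 to 12 h was -1.44, and the call was lost with equal weights and without any 1 of the 18 h arrays. Mpp3, a membrane scaffold protein, was at -0.12, -2.95 and -2.05, so replicate 1 was near 0. Replicate 3 was also the lowest array for Cpb1, a carboxypeptidase (-0.69, -1.22 and -3.16), and for Esm1, a proteoglycan of endothelial cells (-0.95, -1.18 and -3.02). Probes with a tight spread at 18 h included Hao2, a peroxisomal oxidase (-1.64, -1.31 and -1.68), Rnf39 (-1.29, -1.41 and -1.47) and Slit2, an axon guidance ligand (-1.20, -1.28 and -1.44; named after its values were seen). The calls of Hao2 and Rnf39 were lost with equal weights and without any 1 of the 18 h arrays (limma adjusted p for Hao2 from 0.13 to 0.28), and that of Slit2 with equal weights and without replicate 3. Hao2 had a mean of 0.93 at 24 h, so its sign turned, but the difference of 24 h from 18 h did not pass. Dlgap2, a postsynaptic scaffold, Chn1, a GTPase-activating protein for Rac, C5 of the complement cascade, Rsad2, an interferon-induced protein, Map2k5, a MAP kinase kinase, and Pth1r, the parathyroid hormone receptor, had means between -1.90 and -1.35. The probe named Fgfr1-ps1, after a pseudogene, averaged -2.39, and the 3 probes named Fgfr1 averaged -0.23, 0.15 and 0.14. Whether the pseudogene's probe also binds Fgfr1 was not tested.

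The extreme ratios rested on probes from few plates, and a second probe of the same gene often did not share them. Vegfa, the vascular endothelial growth factor, was at log2 -4.51, -4.62 and -4.40 on probe 52C12, or 22.8-fold lower, but averaged 0.13 on probe 25C10. Vegfd, a growth factor of lymphatic vessels, was at 5.33, 4.30 and 3.22 on 52H11 and averaged -0.12 on 29H11. Ccnd1, a G1 cyclin, was at -3.41, -3.66 and -3.37 on 53G02 and averaged -0.37 on 30F03. Rps6kb1, the kinase of ribosomal protein S6, was at 2.99, 2.78 and 2.41 on 52F12 and averaged -0.19 on 34G05. In these 4 genes the second probe averaged between -0.37 and 0.13 while the first was among the most extreme measured. Of 15 called genes with another probe measured, the other probe also passed in 1 (Hspb1), reached at least 0.5 of the called value in 5 and did not in 10. For called probes on plates 36, 52 and 53 it did not in 8 of 9 genes, and for those on other plates in 2 of 7.

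**Figure D4:**
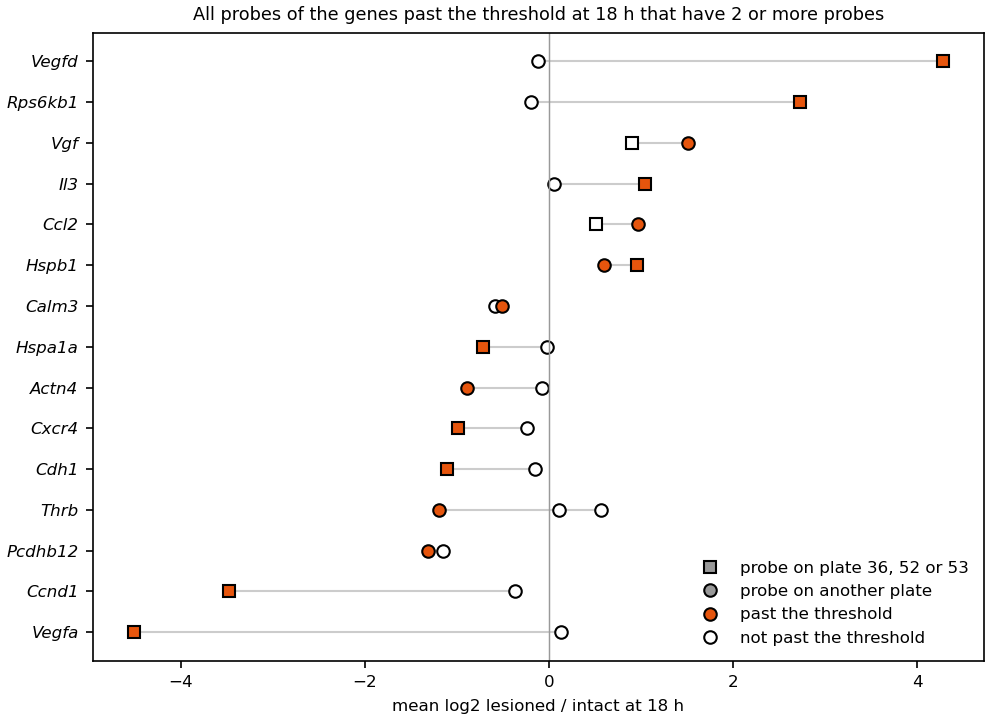
Mean log2 ratio at 18 h (x axis) of every probe of the 15 genes (y axis) that had a called probe and at least 1 other probe. Squares are probes on plates 36, 52 and 53, circles probes on other plates, and filled symbols passed the threshold. For Hspb1, Calm3, Pcdhb12, Ccl2 and Vgf the other probe has the same sign and at least 0.5 of the called value. For Actn4, Ccnd1, Cdh1, Cxcr4, Hspa1a and Il3 it has the same sign but less than 0.5 of that value. The probes of Vegfa lie at -4.51 and 0.13.

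These 3 plates, which were chosen with earlier results known, held 20 of the 249 probes tested there (8.03%), against 50 of 4766 on all others (1.05%). Plate 52 had the highest share of them, 10 of 96 (10.4%), and plate 43, not among the 3, had 8 of 96 (8.33%). Without plates 36, 52 and 53, 44 probes passed, 19 higher and 25 lower, and all of these were among the 70. The injury markers Atf3, Gadd45a and Vgf (1D09) and the Hspb1 probe 9H02 lie on other plates, and Hspb1 probe 52D12 and Vgf probe 52D09 lie on plate 52. Whether a property of the plates took part in these ratios was not tested.

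By function, few members of the gene lists passed at 18 h. In the AP-1, ATF and CREB family, 1 of 22 probes rose (Atf3) and 0 fell, against 0.518% and 0.877% of all probes, and the list's median was 0.11 against 0.01 over all probes. Atf4, which drives the integrated stress response, averaged 0.50 and 0.38 on its probes, Creb1 0.55 and -0.23, Junb -0.20 and Fosl2 -0.51, none of them past the threshold. Among 25 probes of immediate early and stress genes, Gadd45a and Gadd45g rose and 0 fell (median 0.03), and Egr1, an early growth response factor, averaged 0.00. Jun had no probe under that symbol. Of 53 probes of regeneration-associated genes, 4 rose and 0 fell (median 0.08). These 4 belonged to Atf3, Hspb1 and Stmn4. Gap43, the growth cone protein, was at 0.13, 0.68 and -0.22, a mean of 0.20 (limma adjusted p = 0.67), and averaged 0.60 at 24 h. Its 18 h arrays fell on both sides of 0. Sox11, a transcription factor of developing neurons, averaged 0.55 and Sprr1a, a small proline-rich protein, -0.76 (limma adjusted p = 0.074), and neither passed.

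Among neuropeptide and granin precursors, 1 of 31 probes passed (Vgf 1D09, higher), and the list's median was -0.06. Over all probes, 0.518% passed as higher and 0.877% as lower. With shares this low, few or no calls in a list of this size say little about it. Galanin (Gal) was at 0.19, 0.44 and 0.11 and did not pass, and Npy, Vip, Tac1 and Calca averaged between -0.07 and 0.28. For 32 probes of nociceptor and sensory neuron genes 0 passed, with means from -0.39 to 0.55 and a median of 0.08. For 23 probes of gp130 cytokines and the Jak-Stat pathway, 0 passed (median 0.02), with Il6 at -0.18, Socs3, its feedback inhibitor, at 0.62 and Stat3 at 0.27. In the panel of cAMP-responsive genes that the study followed, Atf3, Vgf and Ccl2 rose and 0 of 19 probes fell, with a median of 0.20. The study chose that panel from its growth paradigms, this lesion among them, so it is not independent evidence of a direction. Its metallothionein Mt1 averaged 0.79, 0.45 and -0.15 on 3 probes, Grina 0.45 and Slpi, a secreted protease inhibitor, -0.84, and none passed.

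**Figure D5:**
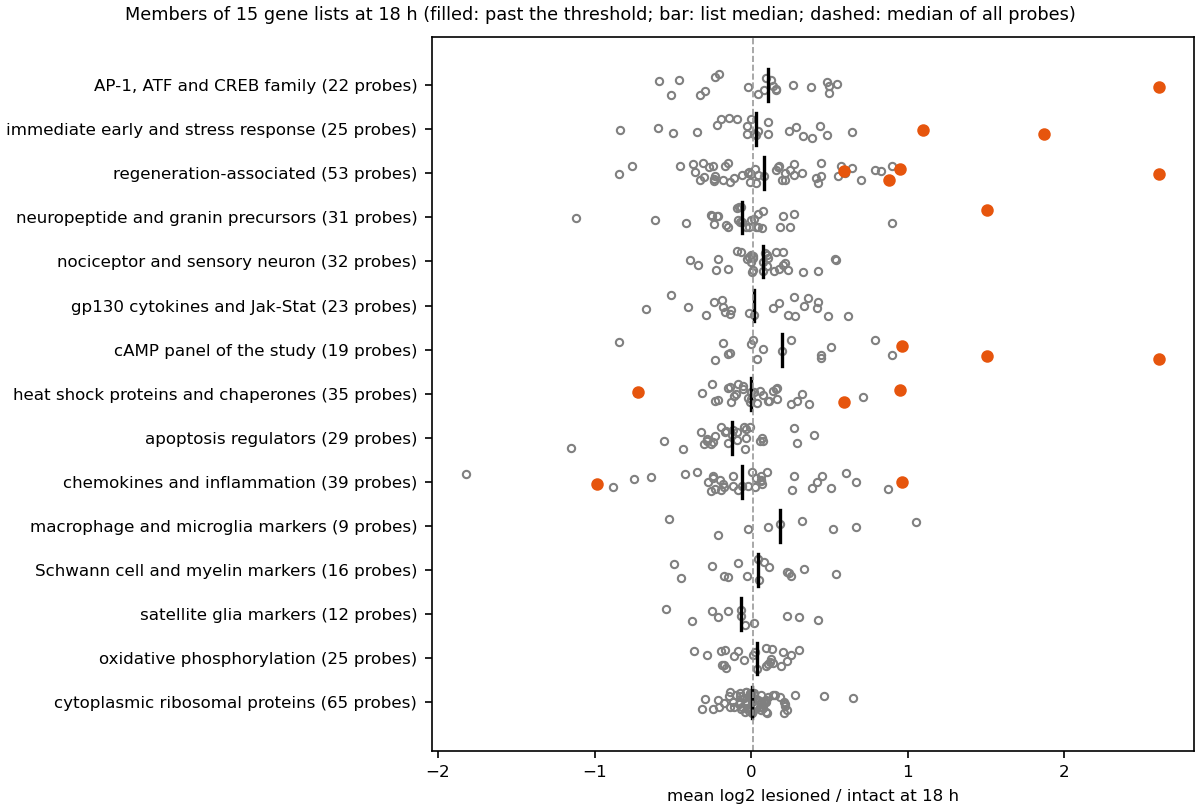
Mean log2 ratio at 18 h (x axis) of each probe of 15 gene lists (y axis). Filled points passed the threshold, the bar is the list's median and the dashed line is the median of all probes tested (0.01); medians run from -0.12 in apoptosis regulators to 0.20 in the cAMP panel, and the called points belong to few genes.

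Of 35 probes of heat shock proteins and chaperones, 2 passed as higher, both of Hspb1, and 1 as lower, against 0.518% and 0.877% of all probes, and the list's median was 0.00. The lower probe, 52E12 of the inducible Hsp70 gene Hspa1a, was at -0.61, -0.81 and -0.75 (limma adjusted p = 0.021). Its call was lost with equal weights (limma adjusted p = 0.24) and without any 1 of the 18 h arrays, and the other Hspa1a probe averaged -0.02. Among 39 probes of chemokines and inflammation, Ccl2 rose and Cxcr4, the receptor of Cxcl12, fell at -0.59, -1.01 and -1.35 on probe 52D06 and averaged -0.24 on its other probe. The Cxcr4 call was lost with equal weights and without replicate 2 or 3. Gstp1 was the member called among 31 probes of metallothionein and antioxidant genes, Stmn4 among 39 of neurofilaments and cytoskeleton and Ccnd1 among 27 of the cell cycle. For apoptosis regulators (29 probes, median -0.12), voltage-gated ion channels (69, median 0.08), neurotrophin and GDNF ligands and receptors (21, median -0.02), cAMP and G protein signalling (51, median 0.00) and cholesterol synthesis (14, median 0.23) 0 probes passed. For glycolysis (74), oxidative phosphorylation (25), cytoplasmic ribosomal proteins (65) and proteasome and ubiquitin genes (33), 0 passed as well, with medians between -0.03 and 0.04.

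In the marker lists of other cell types, 0 probes passed at 18 h, although Esm1, which is not on the endothelial list, did. Over all probes, 0.518% passed as higher and 0.877% as lower. Of 9 macrophage and microglia probes, 6 were above 0 with a median of 0.18, led by Cd53 at 1.05 (limma adjusted p = 0.44) and Ctss at 0.67, while Aif1 was at -0.52. Schwann cell and myelin genes (16 probes) had a median of 0.05 with Mbp at -0.03 and Mag at 0.54 and -0.08, and satellite glia genes (12 probes) one of -0.06 with Glul at -0.06 and Gja1 at -0.55. Endothelial (12 probes), fibroblast (21), skeletal muscle (20) and blood cell (10) lists had medians from 0.00 to 0.12. A ratio that misses the threshold does not show that a cell type was equally abundant in both ganglia, and the median standard error over all probes was 0.25 on the log2 scale.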

How the data were processed

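The authors deposited a table of linear ratios of the 2 channels for 5088 probes on 23 arrays, with the median of each array near 1. Scanner software, background correction and normalization are not stated (not given in the sources used here). The precision is limited by the number of arrays. No dye was swapped, so a dye effect of a probe adds to the 18 h ratio and cancels between times only if constant. Of the probes, 4423 had 1 gene symbol, 2 several and 663 none, and 4375 matched the reference table.

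Ratios were taken to log2 without an offset and fitted with limma 3.58.1 in R 4.3.3: time means from all 23 arrays and 1 weight for each of 2 array classes (17 full arrays, and 6 sparse arrays with more than 200 missing probes, whose spread was 2.18 times as wide). Sparse were replicates 2 and 3 of 48 h, all of 148 h and replicate 2 of 296 h, whose time label reads 294 h. Tests were two-sided with Benjamini-Hochberg adjustment over all probes tested and a threshold of 0.05, and an SE uses the moderated variance. The fit was tested on simulated data. Named were the 15 highest and 15 lowest called probes with a symbol, the markers, and called members of the lists. The members and gene lists were chosen with earlier results of these data known.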

Additional observations from a re-analysis of the deposited data

Results flagged for a closer look

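For 2 probes, the ratio at 18 h differed from that at the other 7 times by limma's test of the difference. Npy (46G05) differed by -1.84 and lay near 0 on the 18 h arrays, with its high ratios at 48 h and later, 3 times that held all 6 sparse arrays. On the full arrays of these times it was at 2.51 (replicate 1 of 48 h) and 3.98 (replicate 1 of 296 h). Reg3b (52G12), on plate 52, differed by 0.88. Its mean was -0.51 over 4 to 12 h and 0.45 at 18 h, and the 18 h mean did not pass against 0.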

How the results depend on the processing

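The 18 h count of 70 was 18 with equal weights (9 higher, 9 lower), 104 with a weight for each array, 62 from 4 to 24 h only, 73 after median centring, 141 with scaled arrays (53 higher, 88 lower), 44 without plates 36, 52 and 53, 64 over gene means of probes, 57 with the replicate number as a block and 3 from the 18 h arrays alone. The methods' t-test gave 394 unadjusted and 0 adjusted, and without 1 of the 18 h arrays the count ran from 22 to 58. None of the called probes followed one by one through these settings changed the sign of its 18 h ratio. Probes that did not pass at 18 h, such as those of Gap43 and Npy, were not followed in this way. The 18 h arrays of both lay on either side of 0, so their sign is not settled.

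The count of 2 for 18 h minus the other 7 times was 0 with equal weights, from 4 to 24 h only and with scaled arrays, 4 with a weight for each array, and 1 on every array, without the 3 plates, over gene means of probes, with the replicate block and with at least 4 other times measured. Without 1 array it ran from 0 (without replicate 1 of 48 h) to 10 (without replicate 1 of 296 h). The count of 0 for 18 h minus 4 to 12 h was 4 with a weight for each array, 6 on every array, and 1 with scaled arrays, over gene means of probes and with the replicate block, and 0 to 6 without 1 array. For 24 h minus 18 h it was 0 to 2 without 1 array. The difference of Stmn4 from the other 7 times, -0.04, was 0.81 from 4 to 24 h only, 0.55 with scaled arrays and -0.16 to 0.14 without 1 array, and that of Npy from 4 to 12 h, 0.06, was -0.026 to 0.22 without 1 array. The cause was not tested.

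The replicate numbers were not used to pair the samples in the main fit. Deviations from the time means correlated at -0.14 to 0.11 between 18 h arrays and arrays of the same number. With arrays of a different number they correlated at -0.14 to 0.20. Of 20 arrays of other times, 9 correlated best with their own number. Whether arrays of the same number shared an animal or intact RNA was not tested.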
